A study of Mus musculus with 21 samples.

Results

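The top dose step of a 10 nm amorphous silica series was examined in RAW 264.7 cells, a mouse macrophage-like line, by comparing the 3 arrays of cells given 50 µg/ml with the 3 arrays of cells given 20 µg/ml. These are 6 of the 21 arrays of the study, chosen by their titles, and all 22626 probe sets that are not array controls were tested. The question is which responses to the particles had levelled off by 20 µg/ml and which went on changing up to 50 µg/ml. Beside them stand 3 arrays each of untreated cells, of cells given 5 µg/ml of the same particles, and of cells given 500 nm silica at 500 and at 1000 µg/ml; 3 arrays at 250 µg/ml of 500 nm silica entered only the estimate of the spread. All particle exposures lasted 2 h in medium without serum, and the labels do not say whether the untreated cells had the same change of medium. The growth and treatment texts give different plates, and neither says whether the replicates came from cultures of their own; all p-values here rest on array-to-array spread, part or all of which may be technical. The line is a single transformed cell line and stands for macrophages only to that extent.

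Macrophages take up particles through scavenger receptors and other phagocytic receptors, and particle contact sets off kinase cascades that switch on genes within minutes. The first wave, the immediate early genes, includes the Fos, Jun, Egr, Nr4a and Klf transcription factors, together with inhibitors that shut the same cascades down, such as the dual-specificity phosphatases. Chemokines and cytokines that call neutrophils and monocytes follow, and a 2 h exposure samples this early phase.

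Marker genes were in keeping with the macrophage label. Of 12 macrophage markers measured, 11 lay above the median gene, with Csf1r, the receptor for macrophage growth factor, at 13.3 on the log2 scale, while Itgam lay below it at 6.02. No marker of neutrophils, T cells, B cells, dendritic cells, fibroblasts or epithelial cells lay above the median gene, and of 6 osteoclast markers only Acp5 did. The summed intensity of the macrophage markers was 43600 to 47800 on the 20 µg/ml arrays and 41800 to 46700 on the 50 µg/ml arrays. The replicate 3 array had the narrowest spread of values in each of the 7 groups, and the narrowest of all 21 was replicate 3 at 50 µg/ml, with an SD over genes of 2.41 log2 against 2.64 for the widest.

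No gene changed on the step by limma after Benjamini-Hochberg adjustment (0 of 12393 genes, 0%; lowest adjusted p 0.231). At an unadjusted p under 0.05 stood 530 genes, or 4.28%, with 260 of them higher (2.1%) and 270 lower (2.18%) at 50 µg/ml. For 1003 genes, 8.09%, the 3 arrays of a dose lay wholly beyond the 3 of the other. The middle 90% of the steps, each the mean log2 level at 50 minus that at 20 µg/ml, ran from -0.29 to 0.28. The other comparisons along the dose series called genes in large numbers: 85 (0.686%) at 5 µg/ml against untreated, 543 (4.38%) between 5 and 20 µg/ml, 1234 (9.96%) at 20 µg/ml against untreated and 2351 (19%) at 50 µg/ml against untreated. These comparisons share arrays with one another and with the step, and the larger count at 50 than at 20 µg/ml is not a test of their difference. That test is the step itself.

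The absence of calls does not by itself show that levels were equal, so each gene's 95% interval was set against a bound. A gene was called held when its whole interval lay within 0.5 log2 of 0, a change of less than 1.41-fold either way. By this measure 7862 of 12393 genes, 63.4%, were held, and 98.1% had an interval inside 1 log2. The median interval reached 0.313 log2 to either side of its estimate. A gene of median precision changing alone would have needed a step of about 1.01 log2, or 2.02-fold, to pass, so smaller changes could go uncalled. The result also depended on how arrays were weighted. With replicate number added to the fit of all 21 arrays (a replicate block), 3 genes were called, all lower. Leaving out untreated replicate 2 or 3, which enter only the estimate of the spread here, gave 1 call. With weights estimated for each array 527 were called, where replicate 2 at 50 µg/ml got a weight of 6.96 and replicate 3 a weight of 0.158.

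Genes known to respond to silica from other arrays gave a view of the step that its own arrays did not choose. At 1000 µg/ml of 500 nm silica, 250 genes (2.02%) differed from untreated cells by at least 2-fold, 117 of them higher and 133 lower. On the 10 nm step 0 of the 250 were called, 122 were held (48.8%, below the 63.4% of all genes) and 128 were unresolved, their intervals crossing a bound. Their median move in the direction of the 500 nm response was -0.02 log2, with quartiles of -0.16 and 0.13, so 117 went further along it and 133 back. The pooled counts hide a lean to negative steps, which are back for a riser and along for a faller. Of the 117 that rose at 500 nm, 42 went along and 75 back, 6 and 14 of them at an unadjusted p under 0.05. Of the 133 that fell, 75 went along and 58 back, 7 and 2 of them at that p. Among all genes 4.28% had such a p, and 5999 of 12393 had a negative step. With genes split into equal parts by level, 67.8% and 66.2% of the brighter parts had a negative step. The part of level in the counts of risers and fallers was not tested. The 117 risers stood at a median of 1.41 log2 above untreated at 20 µg/ml and 1.32 at 50 µg/ml, and the 133 fallers at -0.94 and -0.99. Of the 85 genes that 5 µg/ml already moved, 0 were called on the step and 67 were held (78.8%). Of these 85, 28 went along their response and 57 back, 3 and 11 of them at an unadjusted p under 0.05. Of the 57, 50 were risers, so their step was negative. That smaller set had narrower intervals, a median of 0.25 log2 to either side against 0.31 for all genes, which raises the share that can be held. On its own arrays alone the set was 12 genes, of which 7 were held. Without replicate 1 at 5 µg/ml the set shrank to 56 genes, of which 44 were held.

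**Figure D1:**
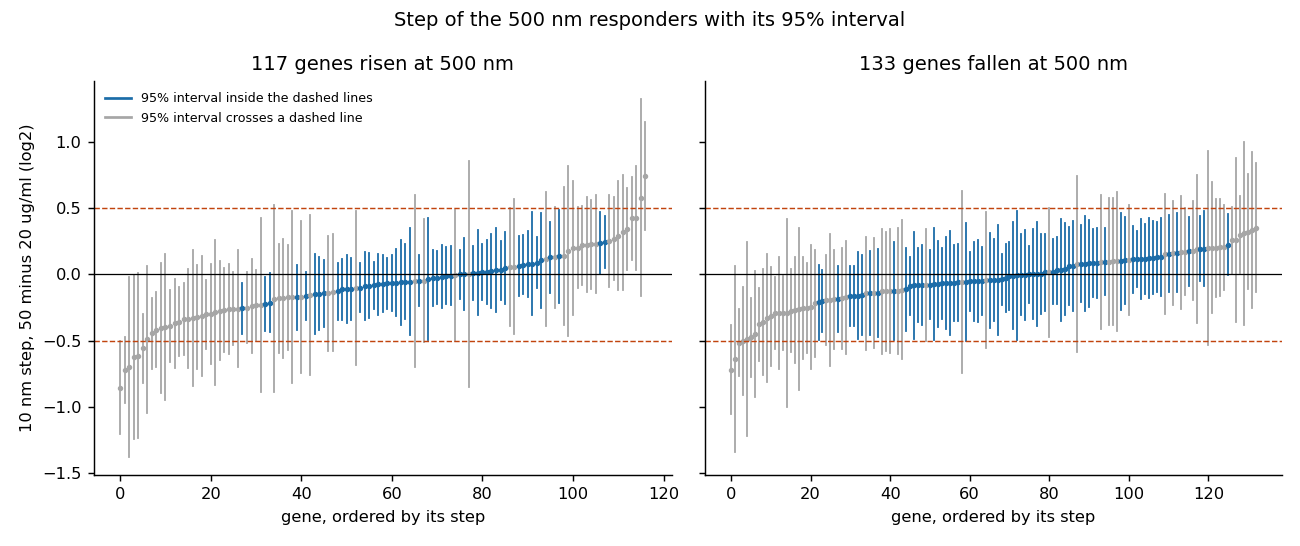
Step in level from 20 to 50 µg/ml of 10 nm silica (log2, vertical axis) for the 117 genes that rose (left) and the 133 that fell (right) at 1000 µg/ml of 500 nm silica, ordered by step; bars are 95% intervals and dashed lines mark 0.5 log2 to either side of 0. The 122 held genes, in blue, have intervals inside the lines, and most points lie near 0 in both panels.

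The held genes with the largest 500 nm responses were led by inflammatory and stress genes. Cxcl2, a chemokine that draws neutrophils, stood at 6.74, 6.89 and 7.22 on the untreated arrays, at 9.03, 9.10 and 8.92 at 5 µg/ml, at 11.83, 11.92 and 12.05 at 20 µg/ml and at 11.88, 11.95 and 12.36 at 50 µg/ml. The 2 upper doses overlapped and both lay far above 5 µg/ml, and the step was 0.13 (95% interval -0.14 to 0.39). Atf3, a stress-induced transcription factor, was at 12.34, 12.44 and 12.24 and then at 12.36, 12.35 and 12.09, a step of -0.07 (-0.30 to 0.16). Its arrays at the upper doses overlapped, after a rise of 3.62 log2 over untreated at 20 µg/ml. Steps as small were found for Ccl4, a chemokine for monocytes (-0.06, -0.32 to 0.19), Gadd45b, a stress sensor of the MAP kinase pathways (0.08, -0.17 to 0.33), and Rgs1, which shortens G protein signals (-0.10, -0.29 to 0.08). Dusp1, the phosphatase that switches off p38 and JNK, was held with a step of 0.25 (0.05 to 0.44), and its 3 arrays at 50 µg/ml all lay above the 3 at 20 µg/ml.

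Among the falls, Ptpro, a receptor-type tyrosine phosphatase, stood at 6.96, 7.06 and 7.10 at 20 µg/ml and at 7.12, 6.96 and 7.22 at 50 µg/ml, against 8.21 to 8.91 untreated. Both upper doses lay below every untreated array and overlapped each other, with a step of 0.06 (-0.23 to 0.36). Calhm2, of the calcium homeostasis modulator channels, Sesn1, a sestrin that restrains mTORC1, and Akr1b10, an aldo-keto reductase, had steps of 0.02, -0.08 and 0.20. For Sgpp1, a phosphatase of sphingosine 1-phosphate, the step was -0.16 (-0.39 to 0.06), and its arrays at 50 µg/ml all lay below those at 20 µg/ml. Another probe set of Sesn1 gave 0.34 and a further one -0.35, another of Sgpp1 gave -0.53, and another of Ptpro gave -0.28. The held state applies to the brightest probe set.

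The change of slope at 20 µg/ml was tested directly. The slope from 20 to 50 µg/ml (1.32 doublings of dose) was set against that from 5 to 20 µg/ml (2 doublings), both per doubling, and the difference is called the bend here. The bend passed limma's test in 22 genes (0.178%). In 21 the slope was positive below 20 µg/ml and lower above it, and in 1, Themis2, it was negative and then slightly positive. All but Plau had also changed between 5 and 20 µg/ml. In 20 of the 22 the second slope was the smaller in size, and 8 belong to the immediate early list. On the step 13 of the 22 were held, against 63.4% of all genes, and the step is itself part of the bend. The 20 µg/ml arrays enter both slopes with opposite signs, which the standard error of the bend includes.

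Rhob, a small GTPase of endosome traffic that is itself an immediate early gene, had the largest bend. It stood at 5.86, 5.86 and 5.51 untreated, 7.05, 7.09 and 6.48 at 5 µg/ml, 11.30, 11.12 and 10.53 at 20 µg/ml and 11.30, 11.06 and 10.28 at 50 µg/ml. The upper doses overlapped throughout, with replicate 3 lowest at each of the 4 doses. Its slope went from 2.06 ± 0.14 (SE) to -0.08 ± 0.21 log2 per doubling, a bend of -2.13 (adjusted p 0.00311).

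Klf2, a transcription factor that restrains inflammatory genes, was at 7.04, 6.82 and 6.68 at 5 µg/ml, at 10.22, 10.53 and 10.60 at 20 µg/ml and at 10.45, 10.31 and 10.15 at 50 µg/ml. The jump between the lower doses left no overlap and the upper doses shared one range, and the bend was -1.91 (adjusted p 2.43e-06). Nr4a1, an orphan nuclear receptor, was at 7.55, 7.59 and 7.73, then 10.89, 11.08 and 10.53, then 11.26, 11.14 and 10.49. It had scarcely moved at 5 µg/ml, with 0.27 log2 over untreated, and its bend was -1.51 (adjusted p 0.00166). The bend of Cxcl2 was -1.36 (adjusted p 9.02e-05).

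**Figure D2:**
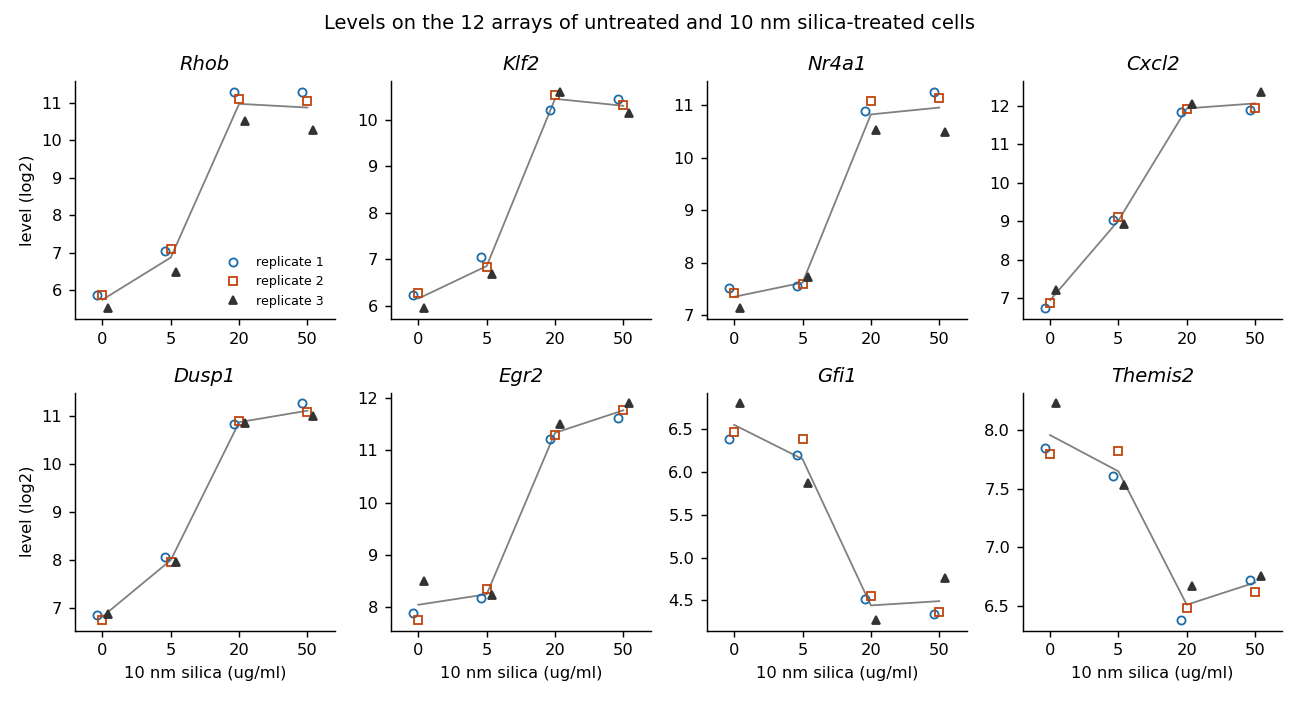
Level (log2, vertical axes with their own ranges) on each of 12 arrays of untreated cells (0) and cells given 5, 20 or 50 µg/ml of 10 nm silica; symbols mark the replicate number and lines join group means. Rhob, Klf2, Nr4a1, Cxcl2, Dusp1 and Egr2 climbed between 5 and 20 µg/ml, and Gfi1 and Themis2 went down. Steps of the means from 20 to 50 µg/ml ran from -0.14 for Klf2 to 0.42 for Egr2.

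The other bends covered further immediate early and feedback genes, named because there were few and after their values were seen. Dusp1 (-1.25) and Dusp16 (-0.62) are MAP kinase phosphatases, Rcan1 (-1.17) inhibits calcineurin, and Egr2 (-1.22), Jun (-1.01), Fosl1 (-0.87) and Atf3 (-0.83) are transcription factors. Ier3 (-1.01) is an early survival gene, Ccl4 (-0.82) a chemokine, C3ar1 (-0.56) the receptor for the complement fragment C3a, and Ndrg1 (-0.78) a stress-responsive gene. Egr2 went on at a lower pace: its arrays at 20 µg/ml were 11.22, 11.29 and 11.50 and those at 50 µg/ml 11.62, 11.76 and 11.89. The 2 groups did not overlap, but the step of 0.42 (0.11 to 0.74) did not pass (adjusted p 0.9). Themis2, a signalling adaptor of immune cells, was at 7.61, 7.82 and 7.53 at 5 µg/ml, 6.38, 6.48 and 6.67 at 20 µg/ml and 6.72, 6.62 and 6.76 at 50 µg/ml. It fell below its 5 µg/ml range and stayed there, with a bend of 0.72 (adjusted p 0.0257).

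In some of the bent genes the mean at 50 µg/ml was also the lower one. Jun had 10.95, 10.98 and 10.95 at 20 µg/ml and 10.72, 10.72 and 10.37 at 50 µg/ml, with no overlap and a step of -0.36 that did not pass (adjusted p 0.9). Ddit4, an mTORC1 inhibitor, had a bend of -0.73 and went from 8.68, 8.58 and 8.50 to 8.17, 8.14 and 7.78. All 3 arrays at 50 µg/ml lay below those at 20 µg/ml, and the step of -0.56 did not pass (adjusted p 0.41). Bbc3, which encodes the pro-apoptotic protein PUMA, had a bend of -0.76 and a step of -0.30. Emp1, a membrane protein (-0.80), Sertad1, a cell cycle regulator (-0.61), Rgs1 (-0.63) and Plau (-0.67) complete the 22.

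**Figure D3:**
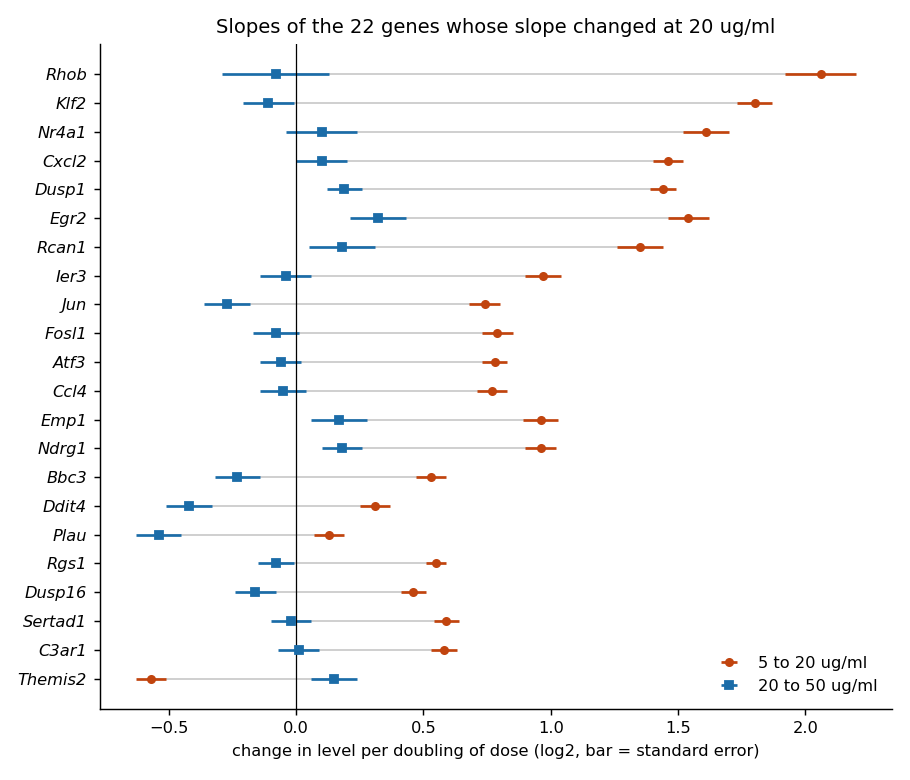
Change in level per doubling of dose (log2, horizontal axis) from 5 to 20 µg/ml (circles) and from 20 to 50 µg/ml (squares) of 10 nm silica for the 22 genes with a called bend, with standard errors. Of the 22 circles, 21 lie right of 0, from 0.13 for Plau to 2.06 for Rhob, while the squares gather between -0.54 and 0.32.

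The count of bends moved with the arrays used: 12 genes without replicate 1 at 20 µg/ml, 6 without its replicate 2, and 14 without replicate 3 at 50 µg/ml. Klf2, Cxcl2, Dusp1 and Egr2 kept their call in all 20 alternatives run, and Rhob and Nr4a1 in 18 and 19 of them. Others were less steady: C3ar1 kept its call in 6, Emp1 and Plau in 7, Dusp16 in 9, Ddit4 in 11 and Sertad1 in 12. The levels of the bent genes at 20 µg/ml ran from 6.51 to 12.54. For 6 of the 21 bent risers the mean at 1000 µg/ml of 500 nm silica was above that at 20 µg/ml of 10 nm silica.

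Promoter sequences of the bent genes are shown for the motifs through which kinase signals are known to act on early genes. RefSeq promoters (GRCm38.p6, the 250 bases before the start of transcription, the first one listed for a gene) were found for 17 of the 22, and both strands were searched. The cyclic AMP response element TGACGTCA, counted once for a site since it reads the same on both strands, was present in 1 of the 17, Dusp1, and in 1.62% of 27025 promoters. Its core TGACG, which lies inside the longer motif, was present in 6 (Atf3, Bbc3, Dusp1, Dusp16, Klf2 and Nr4a1), against 17.9% of all. The AP-1 letters TGANTCA were in 2 (6.87% of all), an NF-kB site in 4 (7.01% of all) and the CArG box in none of the 17 windows (1.4% of all). A match describes letters in a window and is not a test of binding. Dusp1 lies on the minus strand at chr17:26508473-26508722 and holds 1 full element, in capitals, which ends 135 bases before the start. Nr4a1 lies on the plus strand at chr15:101266596-101266845 and holds the core 4 times, each read on the opposite strand as the capital letters. Cxcl2 lies on the plus strand at chr5:90903649-90903898, and the capitals cover 2 overlapping NF-kB matches. Each is printed 5′ to 3′ along its gene.
Dusp1: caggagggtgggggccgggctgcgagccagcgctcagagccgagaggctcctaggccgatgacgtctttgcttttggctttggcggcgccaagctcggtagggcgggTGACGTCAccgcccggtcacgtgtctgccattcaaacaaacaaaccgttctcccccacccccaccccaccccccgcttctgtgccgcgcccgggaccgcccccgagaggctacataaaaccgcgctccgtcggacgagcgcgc
Nr4a1: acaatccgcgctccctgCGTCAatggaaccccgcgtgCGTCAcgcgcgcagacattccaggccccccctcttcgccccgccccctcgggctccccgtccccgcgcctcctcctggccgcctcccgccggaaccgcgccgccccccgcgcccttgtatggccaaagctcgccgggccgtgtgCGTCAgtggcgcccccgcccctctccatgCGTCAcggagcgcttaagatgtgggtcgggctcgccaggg
Cxcl2: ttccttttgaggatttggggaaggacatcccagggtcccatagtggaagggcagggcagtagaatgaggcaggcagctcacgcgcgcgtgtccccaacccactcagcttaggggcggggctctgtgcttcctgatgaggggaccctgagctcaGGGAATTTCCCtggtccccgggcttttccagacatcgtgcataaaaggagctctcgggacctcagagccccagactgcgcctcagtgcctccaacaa

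The smallest p-values on the step belonged to genes whose groups of arrays lay apart, although none passed. Tent5c, Fos and Rbm39 were picked after their values were seen. Plau, the urokinase protease that cells use to open the matrix, had the smallest p (adjusted 0.231). Its levels were 9.51, 9.66 and 9.63 at 20 µg/ml and 8.78, 8.92 and 8.93 at 50 µg/ml, against 7.61 to 8.05 untreated. The 2 groups lay apart with an SD of 0.08 in each, the step was -0.72 (-0.97 to -0.47, 1.65-fold), and the 50 µg/ml level was still above the untreated range. With the replicate block in the limma fit, the adjusted p of Plau was 0.013. Outside replicate 3, same-numbered arrays did not agree best, so this is not counted as a call. Another Plau probe set gave -0.55.

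Tent5c, a cytoplasmic poly(A) polymerase, was at 8.38, 8.30 and 8.53 at 5 µg/ml, 7.96, 8.08 and 8.22 at 20 µg/ml and 7.18, 7.13 and 7.39 at 50 µg/ml. Its highest level was at the lowest dose, and the 50 µg/ml arrays lay below all others that had silica of 10 nm. The step was -0.85 (-1.20 to -0.50), with an adjusted p of 0.41, and of 0.0172 with the replicate block. Txnip, which binds thioredoxin and limits glucose uptake, was at 10.18 to 10.36 untreated, at 9.58, 9.36 and 8.90 at 20 µg/ml and at 8.65, 8.68 and 8.36 at 50 µg/ml. Each dose lay below the one before it without overlap from 20 µg/ml on, with a step of -0.72 (adjusted p 0.41, and 0.0172 with the replicate block). Another of its probe sets gave -1.04.

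In the other direction, Fos, which pairs with Jun to form AP-1, was at 9.32, 9.42 and 9.77 at 20 µg/ml and at 10.09, 9.95 and 10.69 at 50 µg/ml. The groups did not overlap, and the step of 0.74 (0.33 to 1.15, 1.67-fold) did not pass (adjusted p 0.565). Nr4a2, a nuclear receptor related to Nr4a1, was at 7.04, 7.66 and 7.58 and then at 7.93, 8.09 and 7.99, a step of 0.58 (adjusted p 0.41). Its other, dimmer probe set gave 0.51. The bend was called on that probe set (-1.31, adjusted p 0.000275) but not on the brightest one. Rbm39, a splicing factor, had a step of 0.51 (adjusted p 0.41), and its 8 other probe sets gave between 0.07 and 0.55.

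**Figure D4:**
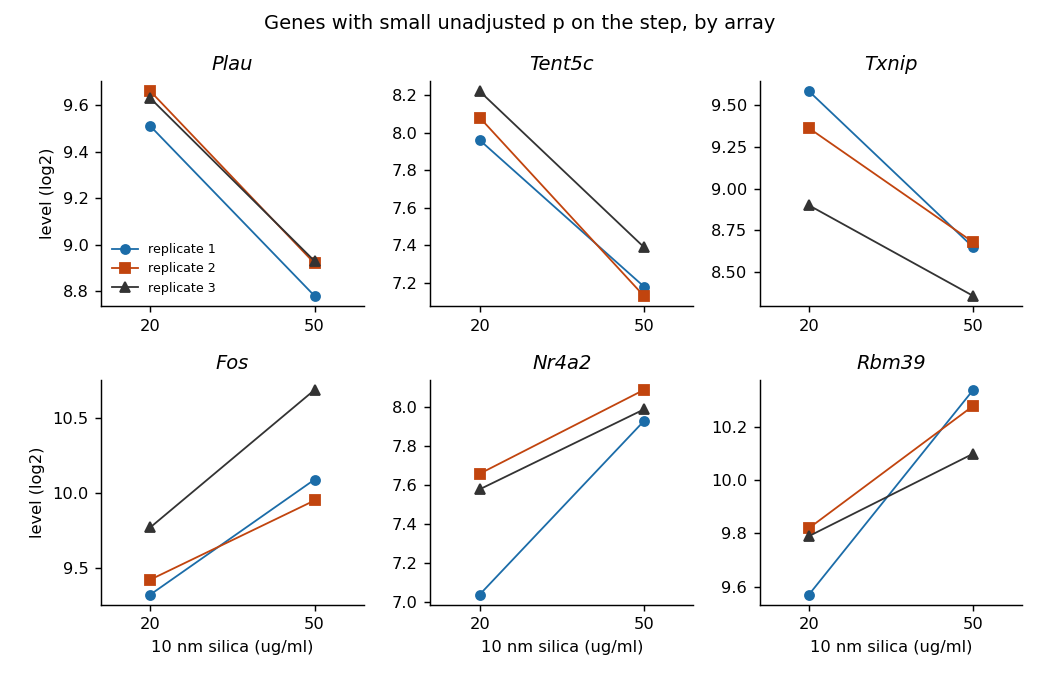
Level (log2, vertical axes with their own ranges) on each array at 20 and 50 µg/ml of 10 nm silica for 6 genes with small unadjusted p; lines join arrays of one replicate number. Plau, Tent5c and Txnip are lower and Fos, Nr4a2 and Rbm39 higher at 50 µg/ml. The doses do not overlap in any of the 6, so the lines of every replicate number must run the same way.

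Gene lists by function were read against all genes, of which 4.28% had an unadjusted p under 0.05 and 63.4% were held. Of all genes, 3.06% were called higher and 6.9% lower than untreated at 20 µg/ml, and 6.85% and 12.1% at 50 µg/ml. Of 34 immediate early genes, 26 were higher than untreated at 20 µg/ml and 28 at 50 µg/ml, and 0 were called on the step. Their median was 1.91 log2 over untreated at 20 µg/ml and 2.08 at 50 µg/ml, and the median step was 0.00, with 17 positive and 17 negative. Of the 34, 14 (41.2%) were held, and steps ran from -0.40 for Plk2 to 0.74 for Fos. At an unadjusted p under 0.05 stood 5 with a positive step (Fos, Nr4a2, Egr2, Arc and Ccn1) and 2 with a negative one (Jun and Srf).

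The MAP kinase feedback genes were the most steady list, with 15 of 18 held and a median step of 0.04. Of 28 cytokines and chemokines, 10 were higher than untreated at 20 µg/ml and 12 at 50 µg/ml, against 3.06% and 6.85% of all genes, and 21 were held; Tnf, the central inflammatory cytokine, had a step of -0.08 (-0.33 to 0.16). Tnfsf9, the 4-1BB ligand, had the smallest p among them, with -0.44 (adjusted p 0.9). Of 23 NF-kB subunits and feedback genes, 20 had a negative step, against 5999 of 12393 genes, with a median of -0.07 and Relb at -0.50 (adjusted p 0.9). The NF-kB list's median difference was 0.09, -0.14 and -0.17 for replicate numbers 1, 2 and 3. Its median step was 0 without replicate 3 at 50 µg/ml. Of its 23 genes, 20 lay above the median level, and bright genes leaned to negative steps. For 33 genes that respond to unfolded proteins or act in the integrated stress response, the median step was -0.12. Of these, 5 had an unadjusted p under 0.05 on the lower side, among them Ddit4, Trib3 (-0.42) and Chac1 (-0.27), against 1 on the higher side. This list's median was 0 without replicate 3 at 50 µg/ml and -0.02 after the arrays were rescaled to one spread. Metallothionein Mt2, which binds zinc, had a step of 0.48 (adjusted p 0.884) among 16 metal handling genes with a median of -0.02.

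The sterol synthesis list had the most uniform sign. All 19 measured genes, of 25 listed, had a negative step, against 5999 of 12393 genes, with a median of -0.24. None was called, and 5 had an unadjusted p under 0.05, all lower. Sqle, squalene epoxidase, was at 10.11, 10.24 and 10.12 at 20 µg/ml and at 9.89, 9.86 and 9.63 at 50 µg/ml, and Msmo1, a sterol demethylating oxidase, at 10.70, 10.67 and 10.54 and then 10.28, 10.24 and 10.13. Both pairs of groups lay apart, with steps of -0.36 and -0.42 (adjusted p 0.52 and 0.62). The list's median difference was -0.16, -0.30 and -0.25 for replicate numbers 1, 2 and 3, and in 6 of 19 genes the 50 µg/ml arrays all lay below the others, against 4.14% of all genes. Against untreated cells the list's median was 0.10 at 20 µg/ml and -0.16 at 50 µg/ml. All 19 genes lie above the median level, and bright genes leaned the same way: with genes split into equal parts by level, the median step was -0.07 and -0.06 in the brighter parts and 0.09 and 0.08 in the dimmer ones. After the arrays were rescaled to one spread the list's median was -0.17. The part of the array spread in this list's value was not tested beyond that.

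Other lists of bright genes had smaller negative medians. The 72 oxidative phosphorylation subunits had -0.12, the 25 lysosomal genes -0.11, the 28 genes of S phase -0.10 and the 27 mitotic genes -0.08, with 0 called in each. Their median differences by replicate number were not of one sign in mitotic and S phase genes (0.05 and 0.02 for replicate 1 against -0.15 and -0.20 for replicate 3). Heat shock genes (21 measured), interferon-stimulated genes (27) and the 156 Zfp zinc finger genes had medians of 0.04, -0.02 and 0.01. Of those 156, 36 were lower than untreated at 20 µg/ml and 47 at 50 µg/ml, against 6.9% and 12.1% of all genes, and 0 were called between the doses.

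In the remaining lists 0 members were called, and each is given with its size, its median step and the member with the smallest p. These were growth factors and the urokinase system (23 genes, median 0.09, Plau), NRF2 antioxidant genes (21, -0.07, the cystine carrier Slc7a11 at -0.39), LXR targets and fatty acid genes (19, 0.02, the desaturase Scd2 at -0.30), and actin and SRF targets (28, -0.07, Tagln at 0.45). They also held p53 genes (23, -0.05, Zmat3 at -0.41), cell death and inflammasome genes (22, -0.01, Txnip), phagocytic and Toll-like receptors (34, -0.07, the scavenger receptor Msr1 at -0.39) and G protein, cyclic AMP and prostaglandin genes (33, -0.08, Gpr84 at -0.40). The last were lineage and repressor transcription factors (38, -0.03, Ets2 at -0.40), hypoxia and glycolysis genes (22, -0.05, Ddit4) and cytosolic ribosomal proteins (45, -0.06, Rpl3l at 0.19). The other probe sets of Scd2 gave -0.67 and 0.14, so its sign differs between probe sets. In the growth factor and urokinase list 8 of the 23 genes lay above the median level. Its median step was -0.12 with only the probe sets above that level, so its sign differs too.

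The genes furthest from untreated at 20 µg/ml are described without a test. The 20 µg/ml arrays chose them, which tilts their steps back toward untreated. The 10 largest rises were Rhob, Cxcl2, Klf2, Dusp1, Plk2, Atf3, Nr4a1, Ccl4, Ccl2 and Egr2, with steps from -0.40 to 0.42, 5 of them negative. Plk2, a Polo-like stress kinase, was at 10.84, 10.60 and 9.96 and then 10.40, 10.38 and 9.43, and Ccl2, a monocyte chemokine, at 9.22, 8.87 and 8.17 and then 9.46, 9.20 and 8.14. Both overlapped between doses, with replicate 3 low at each. The 6 largest falls were Gfi1, Zfp958, Sesn1, Zfp61, Zfp53 and 4632415L05Rik, with steps from -0.33 to 0.20. Gfi1, a repressor of myeloid genes, was at 6.39 to 6.80 untreated, at 4.52, 4.55 and 4.27 at 20 µg/ml and at 4.34, 4.36 and 4.76 at 50 µg/ml, with a step of 0.04.

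The 500 nm series was still moving over its own top step. From 500 to 1000 µg/ml, 227 genes (1.83%) were called, 84 higher (0.678%) and 143 lower (1.15%). Of the 117 risers at 500 nm, 62 were called higher on that step, and of the 133 fallers 58 were called lower; these were chosen on the 1000 µg/ml arrays, so the counts are a description. The slope per doubling differed between the particles in 76 genes (0.613%), and in 74 of them the 500 nm slope was the larger in size. The doses of the particles differ, so this sets the top step of each series side by side and does not compare equal doses. In 46 of the 76 the 500 nm slope was positive and above the 10 nm slope, and in 30 it was negative and below it. On the 10 nm step 58 of the 76 were held, against 63.4% of all genes, and that step is itself part of this contrast.

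Gadd45b had the largest negative difference, -1.44 log2 per doubling (adjusted p 9.38e-05), with a slope of only 0.06 ± 0.09 (SE) at 10 nm. Acod1, the enzyme that makes itaconate, had slopes of 1.38 at 500 nm and -0.05 at 10 nm, and H1f2, a linker histone, 1.40 and -0.01. Other probe sets of Gadd45b and H1f2 gave 10 nm steps between 0.05 and 0.28. On the falling side, Calhm2 had -1.15 at 500 nm and 0.02 at 10 nm (difference 1.17, adjusted p 8e-04), Casp8ap2, a histone gene expression factor, -0.88 and 0.10, and Patz1, a zinc finger transcription factor, -0.85 and 0.08. In the other 2 of the 76, the 10 nm slope was the larger in size and of opposite sign. Plau had -0.54 at 10 nm against 0.30 at 500 nm, and Rbm39 0.38 against -0.26, and neither was called on the 500 nm step (adjusted p 0.32 and 0.345). The count of 76 was 28 to 50 when any one of 11 of the 12 arrays of the contrast was left out, and 59 without replicate 3 at 50 µg/ml of 10 nm silica. Without untreated replicate 3, which enters only the spread, it was 116.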

How the data were processed

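Per the labels' protocols, total RNA of 21 samples in 7 groups of 3 was copied into biotin-labelled RNA and hybridised to Affymetrix mouse arrays. The deposited values are log10 RMA values made by the authors, per the submitters' processing notes; their settings and version the sources used here do not give. Base 10 was read from the values (0.641 to 4.34, where base 10 puts the brightest at 22019 intensity units), and they were multiplied by 3.32 to give log2 levels. RMA evens out changes shared by most genes and compresses those of dim probe sets. Arrays have no depth; their number limits the precision.

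Of 22690 probe sets, 64 were controls; the platform annotation, possibly out of date, gave the rest 1 gene symbol (20380 probe sets), more than 1 (691) or none (1555), and 20351 matched the reference table by gene ID. The brightest probe set stood for each of 12393 genes. Groups were fitted by lmFit and eBayes of limma 3.58.1 under R 4.3.3 (group only, 21 arrays, 14 residual degrees of freedom), with adjustment over 22626 probe sets and a threshold of 0.05. The fit was also run on simulated data with independent noise on each array. Those data had no deviations shared by replicate number and no arrays of unequal spread, so the run does not bear on the counts of calls.

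Replicate numbers come from the titles. Deviations of same-numbered arrays at 20 and 50 µg/ml from their group means correlated at 0.379, 0.395 and 0.759, all above 0.1, so a fit with a replicate block is given beside the step. That block spans all 7 groups, and over pairs of these groups replicate 1 correlated down to -0.24. Only replicate 3 stood apart: replicate 1 at 20 µg/ml correlated at 0.504 with replicate 2 at 50 µg/ml, and replicate 2 at 0.648 with replicate 1, more than with their own numbers. Across the groups of the bend and of the particle comparison, replicate 1 went down to 0.005 and -0.194, while replicates 2 and 3 stayed at 0.337 or above, so not every number paired there. Members, lists and rules were chosen with earlier results of these data known. Named genes were those with the largest 500 nm responses among held genes, the largest changes at 20 µg/ml, the smallest p in each list, and the largest called bends and particle differences; no call on the step was there to name. Alternatives were other scalings, array weights, a block, other variance priors, a filter on dim probe sets, other bounds and leaving out arrays.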

Additional observations from a re-analysis of the deposited data

Results flagged for a closer look

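The step per doubling of dose, 10 nm minus 500 nm, differed between the particles by limma's test of the difference itself in 15 of the 50 genes named by rule, against 0.613% of all genes. Gadd45b, Acod1, H1f2, Calhm2, Casp8ap2 and Patz1 were named for this very difference. Cxcl2, Ccl4, Dusp1, Rgs1, Sgpp1, Akr1b10 and Themis2 were named as held on the 10 nm step with large 500 nm responses. Plau and Slc7a11 were named for the smallest p on that step in their lists. All these rules used arrays of this contrast, so the share is a description. On the negative side were Gadd45b (-1.44), Acod1 (-1.43), H1f2 (-1.42), Cxcl2 (-1.11), Slc7a11 (-1.10), Ccl4 (-1.08), Dusp1 (-1.03), Plau (-0.84) and Rgs1 (-0.58). The positive values were Calhm2 (1.17), Casp8ap2 (0.98), Patz1 (0.93), Sgpp1 (0.80), Akr1b10 (0.78) and Themis2 (0.75). Adjusted p ran from 2.61e-05 for Acod1 to 0.0435 for Akr1b10. Groups of 3 arrays were too small for a test of single arrays that stand apart.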

How the results depend on the processing

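The step had 0 calls on quantile-normalised, centred and rescaled arrays, on the 6 arrays alone, with the trended prior, with the filter on dim probe sets, with 1 probe set per gene and without each of the 6 arrays in turn; it had 3 with the replicate block and 527 with array weights. Chosen after seeing the data, leaving out all replicate 3 arrays gave 0 calls, and array weights with the replicate block gave 1322. The bend had 50 calls with the replicate block, 213 with array weights, 193 with weights and block, 4 on its own 9 arrays, 14 without replicate 3 arrays and 6 to 20 without single arrays of those 9. The particle difference had 201 with the replicate block, 2254 with array weights, 670 with weights and block, 22 on its own 12 arrays, 126 among bright probe sets, 50 without replicate 3 arrays, 28 to 59 without single arrays of those 12 and 116 without untreated replicate 3.

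Of the 500 nm responders, 239 were held with a margin of 1 log2 and 1382 of 1820 with no bound on size, and 92 to 153 without single arrays; 3 were called on the step with the replicate block, 28 with array weights, 41 with weights and block and 0 to 1 without single arrays (1 without untreated replicate 2 or 3, also below). Of the 5 µg/ml responders, 151 of 190 were held with the replicate block, 872 with array weights, 362 with weights and block, 7 of 12 on their own arrays, 10 of 19 with a bound of 2-fold and 44 to 74 without single arrays; 2 were called on the step with the replicate block, 72 with array weights, 78 with weights and block and 0 to 1 without single arrays. List members called on the step numbered 2 with the replicate block, 58 with array weights, 95 with weights and block, 1 without untreated replicate 2 and 0 without single arrays of the 6. The cause of these shifts was not tested; responder sets change with each fit.

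Of 50 named genes, 19 moved by more than 1 replicate SD in at least 1 alternative on the step, and 4 of 25 list medians did. Of 12 called bends among them 8, and of 15 called particle differences 8, lost their call in at least 1 alternative, and 0 reversed.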
